A study of Mus musculus with 3 samples.

Results

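Adrenomedullin and the genes of its receptor complex, Adm, Calcrl, Ramp1, Ramp2 and Ramp3, were followed in cultured mouse lymphatic endothelial cells. They are 5 of the 18194 genes measured, and were taken as a known ligand and receptor set. Every probe set that the platform annotation gives to them was read, 12 of the 45101 on the array. Of these, 10 name 1 of the 5 genes alone and 2 name Ramp2 together with its chromosomal neighbour Vps25.

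The arrays hold 1 group, immortalized lymphatic endothelial cells (imLECs) from the skin of H-2Kb-tsA58 mice (ImmortoMice), isolated by fluorescence-activated cell sorting. All cultures carry the same transgene, whose interferon-inducible promoter drives an SV40 large T antigen that is stable only at low temperature. They were grown at 33 °C with interferon-gamma and then kept for 3 days at 37 °C without it, a step meant to let the T antigen be degraded. There was 1 array for each of 3 cultures, at passages 13, 14 and 18, and no untreated, primary or other reference cells. The labels do not say whether the passages came from separate isolations of cells.

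Adrenomedullin is a secreted peptide that widens vessels, tightens endothelial junctions and promotes lymphatic growth. Its receptor is a pair of membrane proteins: Calcrl, a G protein-coupled receptor, needs a receptor activity-modifying protein (RAMP) to reach the surface and to choose its ligand. With Ramp2 or Ramp3 the pair binds adrenomedullin, and with Ramp1 it binds calcitonin gene-related peptide. In mice, embryos that lack Adm, Calcrl or Ramp2 develop oedema with abnormal lymphatic vessels. Adm is also a well-known target of hypoxia-inducible factors, which bind a short core of the form GCGTG or ACGTG.

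The promoter windows of the ligand gene and of 2 receptor genes that were highest at passage 14 are shown to give the sequence context of these transcripts. They come from RefSeq on GRCm38.p6 and span 250 bases before to 50 bases after the listed start of transcription, read 5′ to 3′ on the gene's strand. RefSeq's table matched 4 of the 5 genes. Ramp2, also highest at passage 14, had no window, and that of Ramp1 is not printed. The windows are chr7:110627407-110627706 on the plus strand for Adm, chr2:84425217-84425516 on the minus strand for Calcrl and chr11:6658283-6658582 on the plus strand for Ramp3. Capitals mark GCGTG or its reverse complement CACGC.
Adm: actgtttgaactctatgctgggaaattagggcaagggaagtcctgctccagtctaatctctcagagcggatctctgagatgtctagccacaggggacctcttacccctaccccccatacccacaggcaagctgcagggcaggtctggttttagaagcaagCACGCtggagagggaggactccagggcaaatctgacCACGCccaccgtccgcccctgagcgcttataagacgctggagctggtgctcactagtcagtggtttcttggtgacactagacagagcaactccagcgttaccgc
Calcrl: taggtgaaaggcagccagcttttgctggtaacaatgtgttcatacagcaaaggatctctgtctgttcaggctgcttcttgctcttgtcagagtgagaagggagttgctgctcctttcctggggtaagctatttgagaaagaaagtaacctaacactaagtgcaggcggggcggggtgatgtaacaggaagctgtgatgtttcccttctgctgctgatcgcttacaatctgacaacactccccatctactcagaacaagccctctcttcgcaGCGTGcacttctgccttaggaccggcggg
Ramp3: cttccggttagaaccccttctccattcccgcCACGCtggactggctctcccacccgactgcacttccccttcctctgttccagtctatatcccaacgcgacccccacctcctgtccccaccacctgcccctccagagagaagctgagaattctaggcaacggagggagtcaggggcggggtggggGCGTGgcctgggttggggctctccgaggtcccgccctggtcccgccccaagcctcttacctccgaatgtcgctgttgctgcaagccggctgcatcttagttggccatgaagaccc
The Adm window held 2 such matches, the Calcrl window 1 and the Ramp3 window 2. Of 32851 promoter windows of this length, 32.4% hold at least 1 GCGTG on either strand. The other core searched, ACGTG, was in none of the 3 windows and is in 19.6% of all windows. The half-site of the cyclic AMP response element, TGACG, was also in none of the 3 and is in 20.8% of all. The Ramp1 window held 1 TGACG, on the reverse strand, and neither GCGTG nor ACGTG. The last letters of TGACG can overlap the first letters of ACGTG. A match describes letters in a window, not a bound site.

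The files hold no detection calls. A floor was therefore taken per array from 43 genes of other tissues, as the 95th percentile of their intensities, at 34.5 units at passage 13, 45.2 at passage 14 and 39.2 at passage 18. Detected means above this floor in every culture, which held for 9438 of 18194 genes (51.9%). A value below the floor is only an upper limit. Where a gene has several probe sets, the one with the highest mean log2 intensity stands for it, and levels are not compared between probe sets. The array of passage 18 had a Gapdh 3'/5' signal ratio of 19.4, against 8.59 at passage 13 and 7.10 at passage 14. The same ratio for Actb was 1.42 at passage 18, against 1.18 at passage 13 and 1.20 at passage 14. Such a ratio is a sign of RNA integrity and of how far amplification reached.

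The cultures expressed the ligand, the shared receptor and 1 RAMP. Adm, Calcrl and Ramp2 were above the floor on all 3 arrays, Ramp3 on 2 of 3, and Ramp1 on none. Of the 10 probe sets that name 1 of the 5 genes alone, 4 were above the floor on all arrays, 1 on some and 5 on none. Over the whole array, 16668 of 34958 probe sets with 1 gene were above the floor on all arrays.

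The ligand gene Adm was read by 2 probe sets, and they did not give the same picture. Probe set 1416077_at, whose source transcript is listed as the RefSeq transcript of Adm, read 486.8 at passage 13, 436.9 at passage 14 and 227.8 at passage 18. Its log2 intensity averaged 8.51 ± 0.59 (SD, n = 3). The cultures of passages 13 and 14 were close to each other by this probe set, and that of passage 18 was 2.14-fold lower than that of passage 13. Probe set 1447839_x_at was far brighter and nearly flat. It read 10080 at passage 13, 9539 at passage 14 and 9111 at passage 18 (13.22 ± 0.07 on the log2 scale). Its suffix x_at marks probes that may also match other transcripts, and the annotation used here lists no source sequence for it. By the rule of the brightest probe set, 1447839_x_at stands for Adm in every value given per gene. Both probe sets ranked passage 13 highest and passage 18 lowest.

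Calcrl, the receptor common to adrenomedullin and calcitonin gene-related peptide, was detected by 1 of its 3 probe sets. Probe set 1425814_a_at read 207.5 at passage 13, 334.1 at passage 14 and 257.3 at passage 18 (8.03 ± 0.34, SD of log2, n = 3). Passage 14 was 1.61-fold higher than passage 13, and passage 18 lay between them. The other probe sets, 1418489_a_at and 1459536_at, stayed below the floor on every array, between 8.49 and 24.6 units. The first of these gave the same order of cultures as the detected probe set, with 24.6 at passage 14 as its highest value, and 1459536_at did not.

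Ramp2, a RAMP that makes Calcrl an adrenomedullin receptor, was well above the floor in each culture. Probe set 1418187_at read 886.5 at passage 13, 1113 at passage 14 and 674.3 at passage 18 (9.77 ± 0.36, SD of log2, n = 3). Passage 18 was 1.65-fold lower than passage 14 and 1.31-fold lower than passage 13. The 2 probe sets shared with Vps25, a subunit of the endosomal sorting machinery, kept the same order of cultures. Probe set 1428621_a_at read 577.5, 778.4 and 564.1 at passages 13, 14 and 18, and 1421051_s_at read 201.5, 258.7 and 186. The probe set of Vps25 alone, 1421050_at, gave another order, with 125, 141.3 and 153.4 at passages 13, 14 and 18. The shared probe sets cannot be assigned to either gene.

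Ramp3, which also makes Calcrl an adrenomedullin receptor, lay close to the floor and had the widest spread of the 5 genes. Its only probe set, 1420401_a_at, read 41.6 at passage 13, 104.4 at passage 14 and 18.9 at passage 18. The first 2 of these values exceeded the floor and the last did not. Passage 14 was 2.51-fold higher than passage 13. Against the floor of 39.2 at passage 18, passage 14 was at least 2.66-fold higher and passage 13 at least 1.06-fold higher. Beyond that narrow bound, the size of the difference between passages 18 and 13 is not resolved.

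Ramp1, the partner that gives Calcrl its affinity for calcitonin gene-related peptide, was below the floor in all 9 readings of its 3 probe sets. The highest was 13.7 at passage 13 (1447474_at) and the lowest 5.99 at passage 14 (1431413_at). These values bound the transcript from above and give no order of the cultures.

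**Figure D1:**
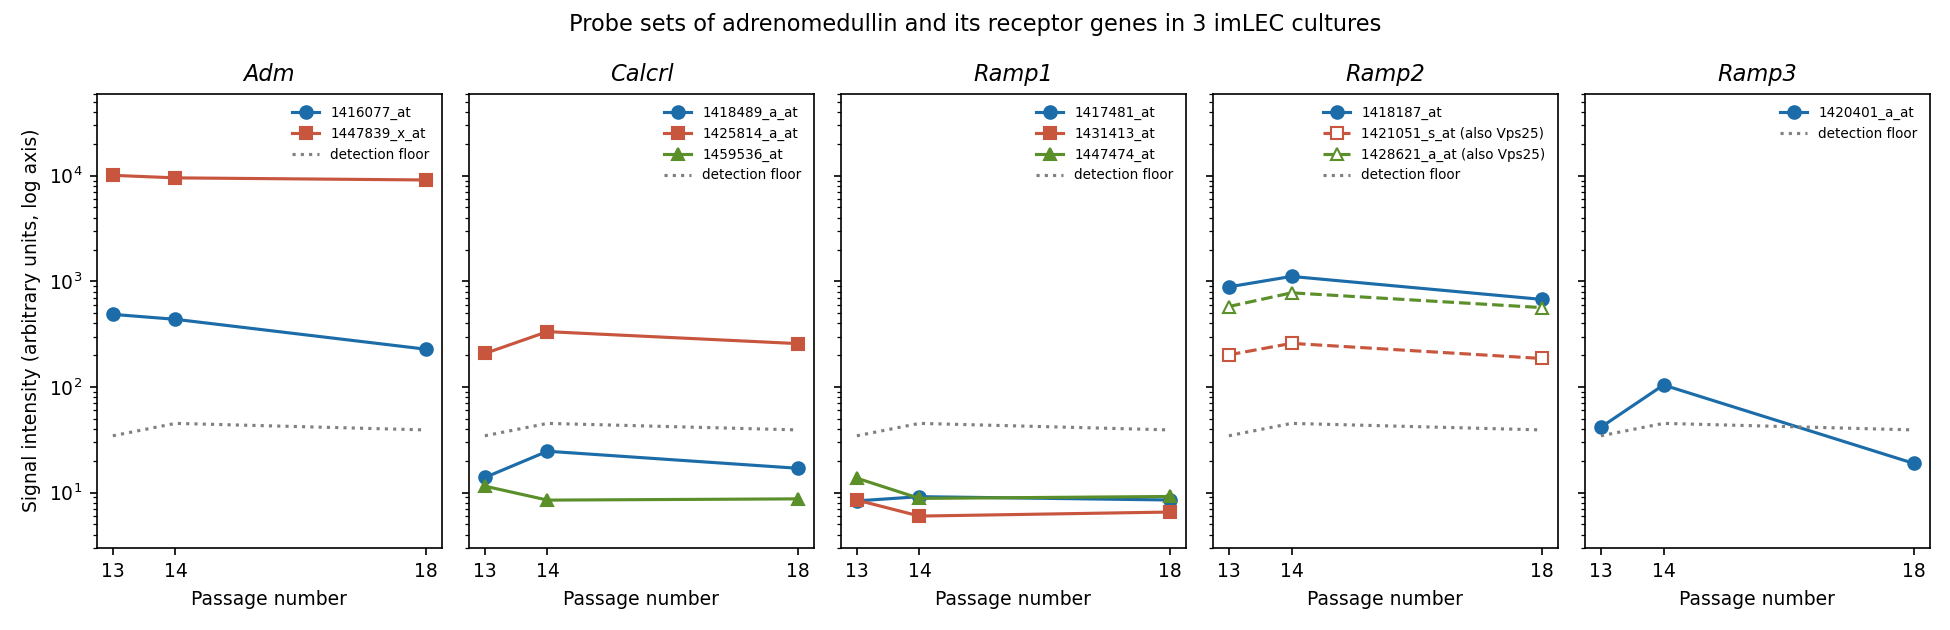
Signal intensity (arbitrary units, log axis) of each probe set of the 5 genes against passage number, 1 culture per passage. The dotted line is the detection floor, and dashed lines with open symbols are probe sets shared with Vps25. Ramp1 lies below the floor throughout, and Ramp3 crosses it, with 104.4 at passage 14 and 18.9 at passage 18.

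The differences between cultures were set against those of all detected genes. With 1 culture per passage there is no test between passages, and a difference of at least 2-fold was counted. By their brightest probe sets, 0 of the 3 detected members differed at least 2-fold between any 2 passages, where 14.2% of detected genes did. Pair by pair, the share of detected genes at least 2-fold higher and lower was 2.02% and 3.04% at passage 14 against 13, 2.26% and 2.18% at passage 18 against 13, and 6.46% and 5.39% at passage 18 against 14. Among single probe sets, 1 of the 4 detected did so, 1416077_at of Adm, where the share of all detected 1-gene probe sets was 13.2%. Its difference of passage 18 from passage 13 was -1.10 on the log2 scale, and 1.41% of the 16668 detected probe sets had a lower difference. The share at least 2-fold lower at passage 18 than at passage 13 was 1.96%. Passage 18 was 1.92-fold lower than passage 14 by the same probe set.

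The detected probe sets of Calcrl and Ramp2 differed by less than 2-fold between any 2 cultures. For Calcrl, the difference of passage 14 from passage 13 was 0.69 on the log2 scale, with 94.8% of detected probe sets having a lower difference. Like both of these genes, 37.0% of detected genes were highest at passage 14. For Ramp2, the difference of passage 18 from passage 14 was -0.72, with 10.1% having a lower one. The median difference over all detected genes was -0.005 for passage 14 minus 13, -0.012 for passage 18 minus 13 and 0.001 for passage 18 minus 14.

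**Figure D2:**
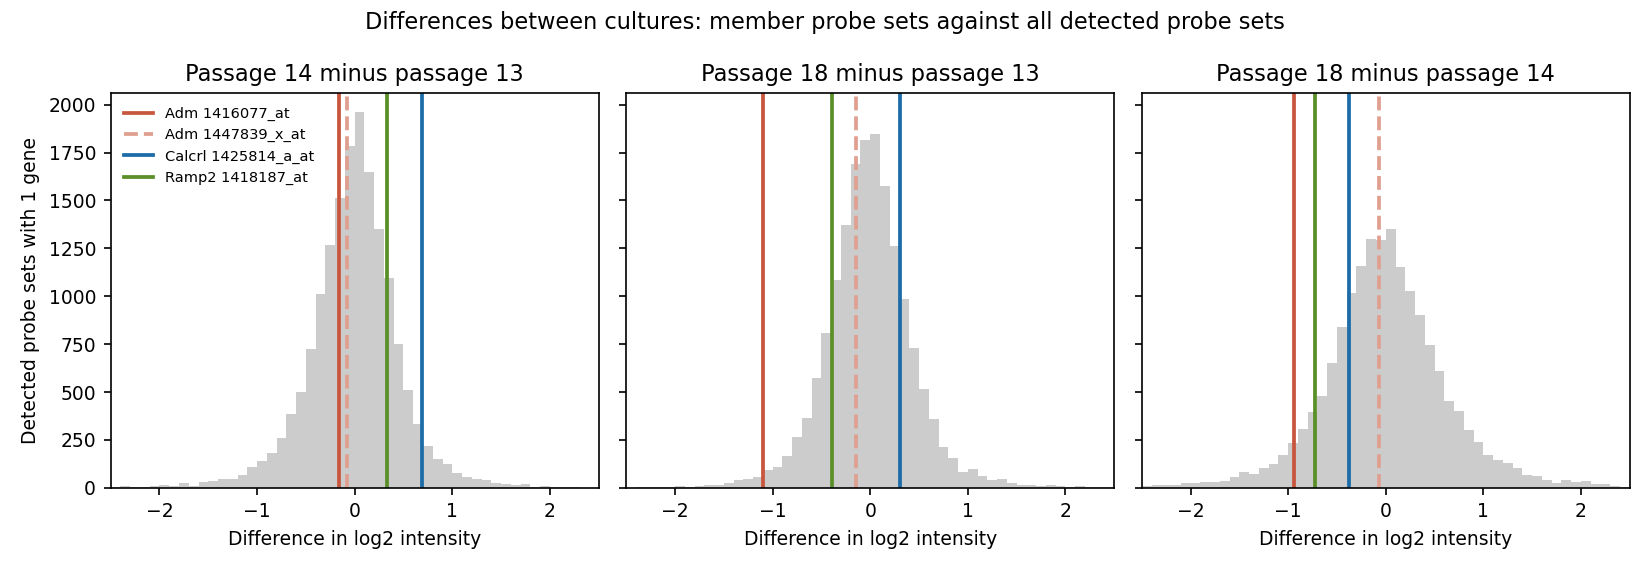
Number of detected 1-gene probe sets (grey bars, 0.1 log2 bins) by their difference in log2 intensity between 2 cultures, with the detected member probe sets as vertical lines. Adm probe set 1416077_at, at -1.10, lies in the lower tail of passage 18 minus passage 13, and Adm probe set 1447839_x_at, at -0.15, lies near the middle.

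A linear trend over passage number was tested with limma on all 10105 genes whose mean lay above the mean floor, with p-values adjusted by the Benjamini-Hochberg method. None of the 4 members tested passed at an adjusted p of 0.05 (0 of 4), where 0% of all genes passed. Before adjustment, 359 genes (3.55%) and 0 members had a p under 0.05. The slopes were -0.026 ± 0.028 log2 units per passage for Adm, 0.017 ± 0.091 for Calcrl, -0.11 ± 0.07 for Ramp2 and -0.34 ± 0.18 for Ramp3 (SE), with limma adjusted p-values between 0.900 and 0.981. The Ramp3 slope takes its reading at passage 18, which is only an upper limit, as a value, and was -0.23 with 16 added before the log2. Fitted over single probe sets, 1416077_at of Adm had a slope of -0.22 ± 0.06 (SE) with an unadjusted p of 0.0227 and a limma adjusted p of 0.902. In that fit 0% of 18071 probe sets passed and 3.95% had an unadjusted p under 0.05. Each gene has 1 residual degree of freedom of its own in this fit, so a p that misses the threshold does not show that a level was constant.

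The receptor partners differed unequally between cultures. The log2 ratio of Ramp2 to Calcrl had a difference of -0.71 for passage 18 minus 13, a 1.63-fold shift towards Calcrl. The difference was -0.36 for passage 14 minus 13 and -0.35 for passage 18 minus 14. With 1 culture per passage these have no test. Of 9437 other detected genes, 15.7% had a lower difference than Ramp2 for passage 18 minus 13. The shares were 10.1% for passage 18 minus 14 and 82.0% for passage 14 minus 13. Taking each gene relative to Calcrl leaves their order unchanged. These shares therefore rank Ramp2 alone and give no background for its ratio to Calcrl. The SD of this log2 ratio over the 3 arrays was 0.35 (n = 3). Between passages 14 and 13, where Ramp3 was above the floor in both cultures, the log2 ratio of Ramp3 to Calcrl was 0.64 higher at passage 14, and that of Ramp3 to Ramp2 was 1.00 higher. The ratios show unequal change between arrays and say nothing on how many molecules of each partner were present.

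**Figure D3:**
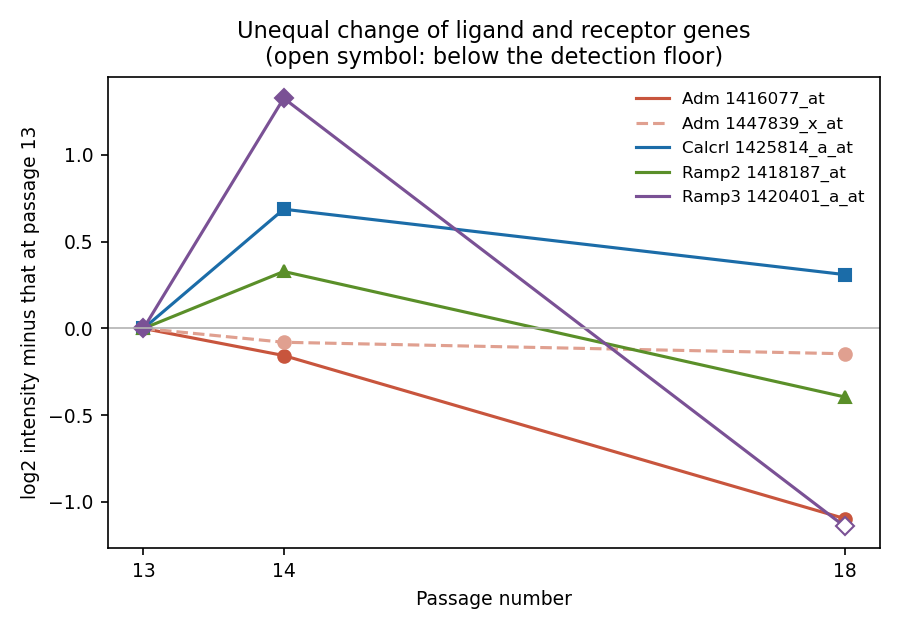
Log2 intensity of the probe sets of Adm, Calcrl, Ramp2 and Ramp3 at passages 13, 14 and 18, minus the value at passage 13, 1 culture per passage. The 3 receptor genes are above 0 at passage 14, by 0.69, 0.33 and 1.33 for Calcrl, Ramp2 and Ramp3, and the open symbol of Ramp3 at passage 18 lies below the detection floor.

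Genes with the most similar profiles were looked for among detected genes, by Euclidean distance between log2 values centred on their mean over the 3 arrays. The rule asked for members that were detected and spanned at least 1 log2 unit, and by their brightest probe sets 0 members did. The genes given here were therefore chosen after the values were seen. Nearest to Adm probe set 1416077_at were Itga4, an integrin chain (distance 0.016), Zcchc3 (0.032) and Gng11, a G protein subunit (0.033). Within a distance of 0.25 lay 93 of 9437 other detected genes (0.985%). Nearest to 1447839_x_at were Ldb1 (0.0033), Rilpl2 (0.0061) and Chkb, a choline kinase (0.0075), with 2996 genes (31.7%) within 0.25. Nearest to Calcrl were Tmem44 (0.0089), Lamc1, a laminin chain (0.019), and Emc8 (0.020), with 470 genes (4.98%) within 0.25. Nearest to Ramp2 were Sephs2 (0.0051), Sting1, a sensor adaptor of innate immunity (0.0052), and Adar, an RNA-editing enzyme (0.0077), with 1063 genes (11.3%) within 0.25. With 3 arrays such likeness is common and describes only the order and size of these values.

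Other genes of the calcitonin family list were mostly at background. Calca, also on this list, had no probe set that names it alone and was not measured. Of 5 measured, 1 was detected, against 51.9% of all genes. This was Crcp, a small protein that couples Calcrl to its signalling pathway, at 200.9, 168.7 and 175.7 at passages 13, 14 and 18. Adm2, a related peptide of the same receptors, read 23.9, 24.5 and 19.0, below the floor on each array. Calcb, which encodes a calcitonin gene-related peptide, Calcr, the calcitonin receptor, and Iapp, the islet amyloid peptide, were below the floor on every array as well, between 4.19 and 14.8 units.

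Genes that process or remove the peptide were largely expressed, with 6 of 9 measured genes detected, against 51.9% of all genes. Pam, the enzyme that amidates the end of adrenomedullin, read 2152 at passage 13, 1444 at passage 14 and 2136 at passage 18. Furin, a proprotein convertase, read 149.2, 184.2 and 196 at the same passages. The 2 genes of the list at least 2-fold apart between cultures were Cpe and Ackr3. Cpe, a carboxypeptidase that trims peptide precursors, read 2892, 1549 and 5164 at passages 13, 14 and 18, so that passage 18 was 3.33-fold higher than passage 14, while its other probe set was below the floor on every array. Ackr3, a scavenger receptor that takes up chemokines and adrenomedullin, read 711.3, 448.8 and 1003, so that passage 18 was 2.23-fold higher than passage 14. These 2 of 6 detected genes stand beside 14.2% of all detected genes at least 2-fold apart.

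No other detected gene of that list differed by 2-fold. The peptidase genes Ide and Ece1 were detected in every culture, at 771.7 to 862.3 and 918.9 to 1343 units. Mme, which encodes neprilysin, was above the floor at passage 13 alone, at 37.8, and just under it at passage 18, at 39.0. Gpr182, once put forward as an adrenomedullin receptor and now known to bind chemokines, read 67.8 at passage 13, 21.9 at passage 14 and 17.6 at passage 18. Only passage 13 was above the floor, at least 1.73-fold over passage 18. Pcsk1, another convertase, was below the floor on all arrays.

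Downstream of the receptor, the cultures expressed the route from the stimulatory G protein to cyclic AMP. Of 26 measured genes of this list 18 were detected, against 51.9% of all genes. Gnas, the stimulatory G protein subunit, read 6770, 5562 and 6468 at passages 13, 14 and 18. The catalytic subunits of protein kinase A, Prkaca and Prkacb, and Rapgef3, a cyclic AMP sensor that tightens endothelial junctions through Rap1, were also detected in each culture. Of the adenylyl cyclases, Adcy3, Adcy4, Adcy6 and Adcy7 were detected. Adcy4 was 2.23-fold lower at passage 18 than at passage 14, with 422.7, 497.6 and 223.5 at passages 13, 14 and 18. Prkar1b, a regulatory subunit, was 2.14-fold lower at passage 14 than at passage 13 by its brightest probe set, with 167.1, 78.1 and 80.3. Its only other probe set above the floor on all arrays, 1416754_at, read 78.2, 53.4 and 49.1 and stayed within 2-fold. The remaining probe sets of Prkar1b were below the floor at passage 14. Adcy4 and Prkar1b were the 2 of 18 detected genes of the list at least 2-fold apart, where 14.2% of all detected genes were. The median difference of its detected genes was -0.05 for passage 14 minus 13 and 0.04 for passage 18 minus 14. Over all detected genes those medians were -0.005 and 0.001.

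All 8 measured genes of receptor trafficking were detected, against 51.9% of all genes. The arrestin gene Arrb1 read 1569, 2272 and 1167 at passages 13, 14 and 18, an order of cultures that 25.8% of detected genes had. Nsf, which in studies of human receptors steers Ramp3 recycling, read 221.4, 205.4 and 166. Slc9a3r1, the scaffold protein also called NHERF1 that binds human RAMP3, was the 1 of 8 genes at least 2-fold apart, with 464.7, 281 and 726.2, so that passage 18 was 2.58-fold higher than passage 14. A second Slc9a3r1 probe set, 1438115_a_at, gave 423.4, 227.1 and 634.7 in the same order, and 1450982_at gave 179.9, 79.3 and 152.4, highest at passage 13.

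Genes of the hypoxia response, the pathway best known for raising Adm, differed among themselves in direction. Of 22 measured genes 19 were detected, against 51.9% of all genes. Their median difference was -0.34 for passage 14 minus 13, -0.26 for passage 18 minus 13 and 0.22 for passage 18 minus 14. Between passages 18 and 13, 8 genes were higher at passage 18 and 11 lower. Epas1, which encodes a hypoxia-inducible factor of endothelium, read 978.6, 500.1 and 1810 at passages 13, 14 and 18, and passage 18 was 3.62-fold higher than passage 14. Egln1, an oxygen sensor, read 801.9, 633.1 and 1267 by its brightest probe set, and by the other passage 18 was 1.13-fold higher than passage 14. Egln3, a related sensor, and Pdk1, a kinase that restrains pyruvate use, were 2.45-fold and 2.22-fold lower at passage 18 than at passage 14. P4ha2, a collagen-modifying enzyme, was 2.05-fold lower at passage 14 than at passage 13. These were the 5 of 19 detected genes of the list at least 2-fold apart, where 14.2% of all detected genes were. Pgk1 and Ldha, glycolytic targets, were 1.39-fold and 1.40-fold lower at passage 18 than at passage 13. Over these lists 0 genes passed the trend with passage (limma adjusted p under 0.05), where 0% of all genes did.

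**Figure D4:**
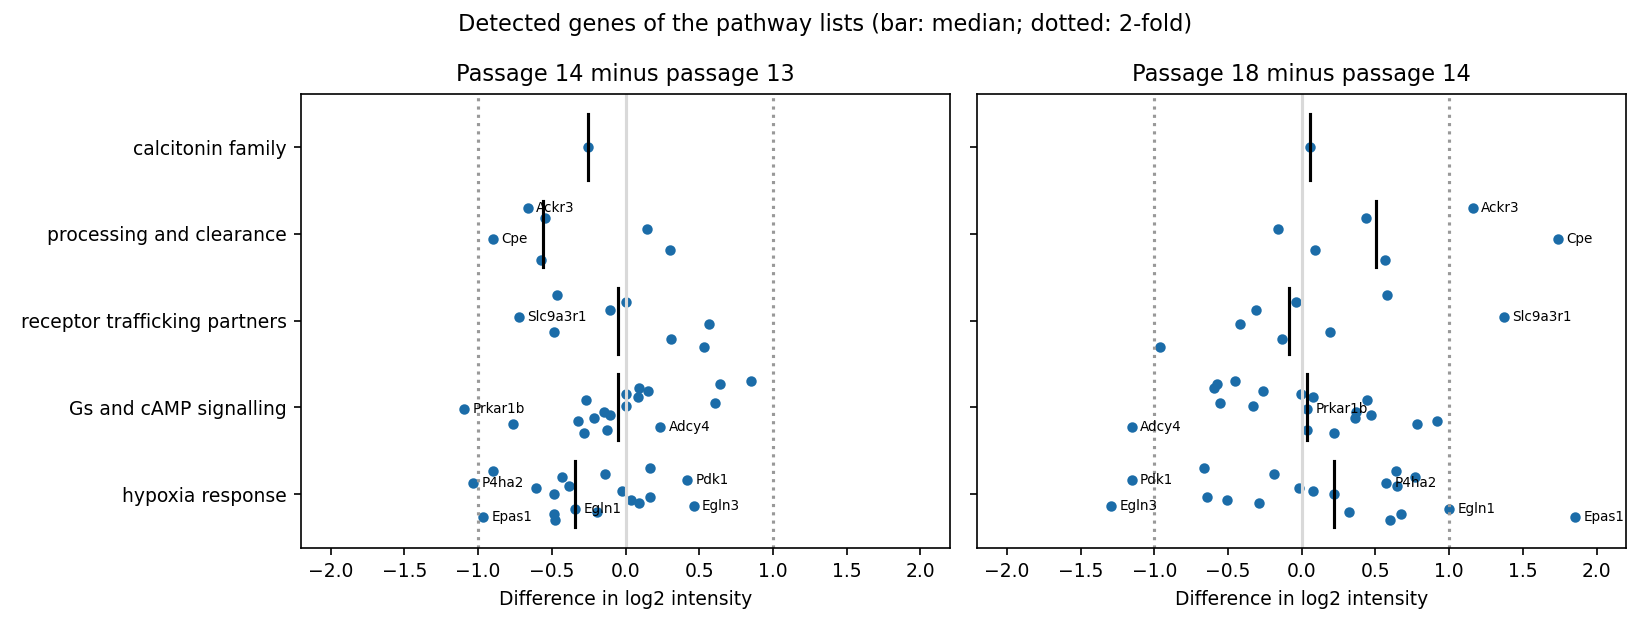
Difference in log2 intensity between cultures for the detected genes of 5 lists, 1 point per gene, with a bar at each median and dotted lines at 2-fold. Genes at least 2-fold apart between any 2 cultures are named, and Cpe, Ackr3, Slc9a3r1, Egln1 and Epas1 lie at or beyond 2-fold higher at passage 18 than at passage 14.

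The labelled cell type was checked on marker lists. All 12 pan-endothelial genes were detected, and 7 of 11 measured lymphatic genes, with Itga9, Mmrn1 and Reln below the floor on every array. Prox1, the transcription factor that sets lymphatic identity, read 73.4, 34.6 and 48.6 at passages 13, 14 and 18, below the floor of 45.2 at passage 14. Lyve1, a hyaluronan receptor of lymphatic vessels, read 1375, 2929 and 162.9, and Flt4, the receptor of the lymphatic growth factor Vegfc, read 2039, 1869 and 919.7. Both were lowest at passage 18, as were Sox18, Nrp2, Adm by both probe sets, Ramp2 and, by a reading under the floor, Ramp3. This was not particular to lymphatic genes, as all 12 pan-endothelial genes were lower at passage 18 than at passages 13 and 14. The order of Ramp2, passage 14 over 13 over 18, was that of 25.8% of all detected genes. Of the other detected lymphatic genes, Foxc2 (782.9, 266.8 and 954.8) and Nr2f2 (1427, 1226 and 1440) were highest at passage 18. Pdpn was lowest at passage 14, with 4615, 1933 and 3715 at passages 13, 14 and 18. Of the markers of other cells, 2 of 11 leukocyte, 3 of 9 keratinocyte and epithelial, 3 of 10 mural and 5 of 10 fibroblast genes were detected. Of the fibroblast genes, Thy1 read 2496, 1414 and 1723 at passages 13, 14 and 18, Col1a1 262.9, 92.8 and 1228, and Mmp2 534.1, 568.5 and 1297, with Col3a1 and Fbln1 also detected. The mural genes detected were Acta2, at 1467, 308 and 5289, Tagln, at 4535, 618.6 and 1756, and Pdgfrb, at 77.9, 66 and 206.3. The leukocyte genes were Cd68 and Cd53, at 58.2 to 243.9 and 64.6 to 244.3 units, and the epithelial genes were Krt18, Krt10 and Krt5. Ptprc, Cdh1 and Pdgfra, from the leukocyte, epithelial and fibroblast lists, stayed under the floor in each culture. Col1a2 of the fibroblast list read 100.7, 15.9 and 318.4, above the floor on 2 arrays. Given the detected genes of the same lists, these undetected genes do not show that such cells were absent. The summed intensity of the lymphatic genes was 12034, 10424 and 8085 at passages 13, 14 and 18. That of the pan-endothelial genes was 20087, 19874 and 13629, that of the mural genes 6216, 1119 and 7396, and that of the fibroblast genes 3887, 2481 and 5564. The mural sum joins a higher Acta2 and a lower Tagln at passage 18 than at passage 13. The leukocyte sum was 533, 496.3 and 243.6, and the keratinocyte and epithelial sum was 511.6, 424.2 and 675.7. The part of these differences, and of the Gapdh ratio of 19.4 at passage 18, in the levels of Adm, Calcrl, Ramp2 and Ramp3 was not tested. In bulk cultures, fewer cells of a type and less RNA per cell cannot be told apart.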

How the data were processed

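RNA of 3 imLEC cultures was amplified by linear isothermal amplification and labelled with biotin, 1 array each, per the labels' protocols. The deposited values are linear signal intensities per probe set. MAS5 appears in the submitters' processing notes with no role stated, and further steps were not given in the sources used here. Median intensities were 25.7, 26.0 and 26.3 at passages 13, 14 and 18, so the deposited intensity values were taken as already scaled and converted to log2. All value columns were used. The platform annotation gave 1 gene for 34958 of 45101 probe sets, and symbols were updated through Entrez identifiers to RefSeq genes of GRCm38.p6.

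The floor came from 43 genes restricted to other tissues, of which Prm1, Camk2a and Apoa4 themselves passed it on all arrays. The passage trend used limma 3.58.1 (lmFit, eBayes with an intensity trend, R 4.3.3) and was tested on simulated data. The simulated spread was the same for every gene, so that test does not show the power of the fit on these cultures. P-values of the trend rest on how far 3 cultures lie from a straight line over passage, with information on variance shared across genes. They do not measure the spread between replicate cultures of a passage. The labels do not state whether the cultures are independent, and the number of arrays limits precision. The members, lists and motifs were chosen with earlier results of these data known. Named genes were all members, the measured genes of the calcitonin family list and of the processing and clearance list and, in the other 3 pathway lists, those detected and at least 2-fold apart. Other genes are examples named after their values were seen. Alternatives were the floor percentile (90 and 99), the median of probe sets, single probe sets, no probe sets ending in x_at or s_at, quantile normalization, median centring, adding 16 before the log2, no filter, passage 18 against the other passages, and leaving out each array.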

Additional observations from a re-analysis of the deposited data

How the results depend on the processing

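The trend called 0 genes under all 8 alternatives, with smallest adjusted p-values between 0.630 and 0.945 (limma) and 372 to 713 features at an unadjusted p under 0.05. With each array left out in turn, slopes per passage ranged from -0.080 to -0.017 for Adm, from -0.094 to 0.69 for Calcrl, from -0.18 to 0.33 for Ramp2 and from -0.62 to 1.33 for Ramp3. The positive ends for Ramp2 and Ramp3 are those without passage 18. The Calcrl value was -0.033 with passage 18 set against the mean of the others. The number of members detected was 3 with the floor at the 90th or 99th percentile, 2 (without Calcrl) with the median of probe sets, and 3 to 4 with an array left out, Ramp3 being added without passage 18. Without probe sets ending in x_at or s_at, a choice added after seeing the data for this count, 1 detected member was at least 2-fold apart (Adm) in place of 0. The log2 difference of Adm between passages 18 and 13 was then -1.10, and -0.62 with the median of its probe sets, in place of -0.15. The shift of Ramp2 relative to Calcrl between passages 18 and 13 ranged from -0.71 to -0.68. Median centring and leaving out x_at and s_at probe sets could not change this value. The median of probe sets took a Calcrl probe set that was below the floor on every array. The narrow range is therefore weak evidence of stability. No paired analysis was possible because there is 1 group. Ramp1 and Ramp3 were limited by signal over background.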

Other observations

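The disagreement between the Adm probe sets was wide for this array. The differences of passage 18 from passage 13 by 1416077_at and 1447839_x_at lay 0.95 log2 units apart. Among 4416 genes with at least 2 detected probe sets, the median distance between the lowest and highest such difference was 0.29, and 98 genes (2.22%) had a distance at least as wide as Adm. Among the 2607 genes with exactly 2 detected probe sets, as Adm has, the median was 0.22 and 0.959% had a distance at least as wide. Which of the 2 probe sets follows the Adm transcript was not tested.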
